A study of Homo sapiens with 6 samples.

Results

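The forkhead genes encode transcription factors that share a winged-helix DNA-binding domain, and their symbols run from FOXA to FOXS. Rows of the count table were taken as members where the symbol was FOX, a letter from A to S and a number, with an optional B or L1 at the end. FOXM1, the member tied to mitosis, was set aside by name. The rule gave 47 members of 39396 symbols in the table, among them 2 annotated as pseudogenes (FOXO3B and FOXO1B). No measured value entered the rule. Symbols outside it were not counted as members, so that of the FOXD4-like copies FOXD4L1 alone was.

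RNA sequencing was done on 6 libraries labelled as RKO, an established human colorectal carcinoma line, with genotype WT in all of them. The 3 olaparib libraries came from cells given an inhibitor of the PARP enzymes, which sense breaks in DNA. The 3 DMSO libraries came from cells given the solvent. Cells were plated 24 h before treatment in both groups, and the sources used here do not give the dose or the length of treatment. The study's title ties olaparib sensitivity to the acetyltransferase KAT2B and the repair protein RAD51C, and olaparib against DMSO is the 1 comparison that the labels allow. No label says that replicates were grown separately. P-values therefore measure the spread between libraries, which may be technical.

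Forkhead factors bind a short AT-rich element, and the FOXA factors can do so on closed chromatin, which earned them the name of pioneer factors. Many members are switched on in few tissues of the embryo, where they mark a lineage: FOXA in gut endoderm, FOXF and FOXL1 in gut mesenchyme, FOXN1 in thymic epithelium and FOXJ1 in cells with motile cilia. Others are found in most cells. The FOXO factors are held in the cytoplasm when insulin signalling phosphorylates them through AKT, and the FOXK factors act on metabolism downstream of mTOR.

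Promoter sequence is shown for the genes whose levels set the groups apart. FOXN1 had counts in the olaparib libraries and none in the DMSO libraries, FOXI3, FOXA3 and FOXB1 the reverse, and FOXQ1, FOXF2 and FOXC1 are neighbours on chromosome 6 that went different ways. The sequences are from RefSeq on GRCh38.p14 and run from 250 bases before to 50 bases after the annotated start, 5′ to 3′ on the gene's strand, with each CpG in capitals.
FOXN1 (chr17:28506098-28506397, + strand): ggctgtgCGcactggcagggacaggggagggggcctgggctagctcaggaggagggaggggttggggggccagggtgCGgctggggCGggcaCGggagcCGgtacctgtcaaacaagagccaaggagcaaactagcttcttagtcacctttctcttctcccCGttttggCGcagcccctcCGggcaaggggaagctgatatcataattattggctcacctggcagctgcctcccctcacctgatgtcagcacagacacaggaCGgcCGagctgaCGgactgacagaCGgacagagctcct
FOXI3 (chr2:88452644-88452943, - strand): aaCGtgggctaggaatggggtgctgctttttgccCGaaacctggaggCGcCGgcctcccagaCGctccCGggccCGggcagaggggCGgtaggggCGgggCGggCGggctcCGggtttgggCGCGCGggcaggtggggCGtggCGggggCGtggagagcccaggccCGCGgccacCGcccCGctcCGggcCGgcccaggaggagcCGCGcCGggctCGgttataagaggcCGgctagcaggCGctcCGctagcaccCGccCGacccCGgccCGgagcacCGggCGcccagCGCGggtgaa
FOXA3 (chr19:45864076-45864375, + strand): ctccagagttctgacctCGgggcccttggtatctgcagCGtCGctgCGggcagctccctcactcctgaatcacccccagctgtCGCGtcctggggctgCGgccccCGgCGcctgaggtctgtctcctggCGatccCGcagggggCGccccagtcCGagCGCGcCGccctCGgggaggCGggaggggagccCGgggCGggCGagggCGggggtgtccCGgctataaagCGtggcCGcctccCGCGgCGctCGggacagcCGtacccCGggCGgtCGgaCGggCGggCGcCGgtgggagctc
FOXB1 (chr15:60004061-60004360, + strand): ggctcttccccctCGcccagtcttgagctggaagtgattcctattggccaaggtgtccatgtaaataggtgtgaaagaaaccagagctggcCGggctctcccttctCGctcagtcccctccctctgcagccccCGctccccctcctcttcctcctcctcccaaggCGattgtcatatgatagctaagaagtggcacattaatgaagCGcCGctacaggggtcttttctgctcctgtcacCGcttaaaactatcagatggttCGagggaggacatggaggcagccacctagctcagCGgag
FOXQ1 (chr6:1311848-1312147, + strand): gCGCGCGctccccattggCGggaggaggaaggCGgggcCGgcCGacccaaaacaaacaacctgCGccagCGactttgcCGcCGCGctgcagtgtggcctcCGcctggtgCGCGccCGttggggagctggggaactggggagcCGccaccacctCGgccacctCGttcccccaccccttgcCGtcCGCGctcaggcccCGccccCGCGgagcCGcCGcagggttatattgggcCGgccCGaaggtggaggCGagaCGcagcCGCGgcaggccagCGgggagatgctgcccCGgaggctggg
FOXF2 (chr6:1389326-1389625, + strand): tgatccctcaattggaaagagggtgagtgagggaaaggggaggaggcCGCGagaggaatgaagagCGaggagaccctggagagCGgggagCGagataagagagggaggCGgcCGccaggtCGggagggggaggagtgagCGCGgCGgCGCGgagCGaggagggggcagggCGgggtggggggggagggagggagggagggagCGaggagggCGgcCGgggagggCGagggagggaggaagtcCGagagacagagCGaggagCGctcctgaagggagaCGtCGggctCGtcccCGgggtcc
FOXC1 (chr6:1609665-1609964, + strand): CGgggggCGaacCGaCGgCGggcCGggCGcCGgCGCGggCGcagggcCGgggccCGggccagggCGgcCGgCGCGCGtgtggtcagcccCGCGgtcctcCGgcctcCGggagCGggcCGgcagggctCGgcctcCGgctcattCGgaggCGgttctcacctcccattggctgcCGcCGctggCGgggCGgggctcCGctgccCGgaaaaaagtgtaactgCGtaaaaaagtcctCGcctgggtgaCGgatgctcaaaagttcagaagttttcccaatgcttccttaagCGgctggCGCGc
The printed promoters differ widely in CpG content. FOXN1 and FOXB1 hold 12 and 10 CpG, and 47.1% and 44.0% of the 27305 promoters in the RefSeq table hold fewer. FOXI3 and FOXA3 hold 39 and 37 CpG, and the chromosome 6 neighbours FOXQ1, FOXF2 and FOXC1 hold 35, 26 and 40.

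Library totals ran from 28715138 to 42423785 counts. Correlations between libraries, on log2(CPM + 0.5), were 0.989 to 0.997 within groups and 0.817 to 0.826 between groups. Levels are CPM, the counts of a gene relative to the TMM-scaled size of its library, unless they are given per length. Markers of other cells differed between the groups, as did most genes. Over all genes tested, 35.4% were higher and 40.3% lower in olaparib. Of 12 embryonic kidney markers, 11 were lower and 1 was higher in olaparib; their summed level was 36.1 to 38.8 CPM in olaparib libraries and 197.7 to 384.9 CPM in DMSO libraries, and PAX2, SALL1 and WT1 had no count in olaparib. Of 5 tested neuronal markers, 4 were lower, with summed levels of 21.1 to 26.9 CPM in olaparib and 312.8 to 425.3 CPM in DMSO, and ELAVL4, KIF1A, NEFL and STMN2 had no count in olaparib.

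Colon epithelium markers, the defining list for the labelled line, did not give 1 direction. Of 7 tested, 4 were higher and 2 lower in olaparib, the sum was 814.7 to 1093 CPM in olaparib and 243.4 to 312.6 CPM in DMSO, and CDX1 had no count in any library. CDX2 and GPA33 had no count in olaparib and KRT19 none in DMSO. Tested markers of fibroblasts gave 1 higher and 4 lower of 6 (summed 103.1 to 136.2 CPM in olaparib, 93.9 to 101.6 CPM in DMSO), of endothelium 2 higher and 1 lower of 4 (23.0 to 24.7 against 1.33 to 1.69 CPM), and of blood 1 higher and 2 lower of 4 (1.47 to 2.78 against 2.28 to 3.54 CPM). The part of these differences in the forkhead results was not tested. Treatment and any difference in the source of the cells cannot be told apart, nor can fewer cells of a type and less RNA per cell, so directions below are between libraries as labelled.

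Most forkhead genes differed between the groups, as did most genes. Of the 47 members, 37 passed the filter on low counts and 28 of those were called (75.7%) at an adjusted p under 0.05, by edgeR's quasi-likelihood F-test, with p-values adjusted after Benjamini and Hochberg over the 17078 genes tested. That share equals the 75.7% called over all genes tested. Members higher in olaparib numbered 10 (27.0% of those tested), against 35.4% of all genes tested, and members lower in olaparib numbered 18 (48.6%), against 40.3%. Groups did not overlap for 28 of 37 members, against 79.4% of genes tested. Calls of at least 2-fold were made for 21 of 37 members, against 47.0% of genes.

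In size, the median log2 fold change was -0.44 over the tested members and -0.09 over all genes, and the median absolute value was 1.38 over members and 0.94 over all genes. Genes with a zero count in 1 group, set at their lower bound, left both medians of the members as they were. Replicates varied little beside this: the median coefficient of variation was 11.4% in olaparib and 13.2% in DMSO libraries over the 26 members at 1 CPM or more in both groups. Of the tested members, 6 averaged under the filter's cutoff in 1 group, so they passed through the other group only and had to differ. In FOXN4, FOXD4L1 and FOXH1 the weaker group did not reach that cutoff in every library. That group alone would not have passed them either. The p-values of all these members add no support, and all are included in the counts and medians given here. The plot of forkhead levels by library shows 36 of the 37 members at 1 CPM or more in either group.

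**Figure D1:**
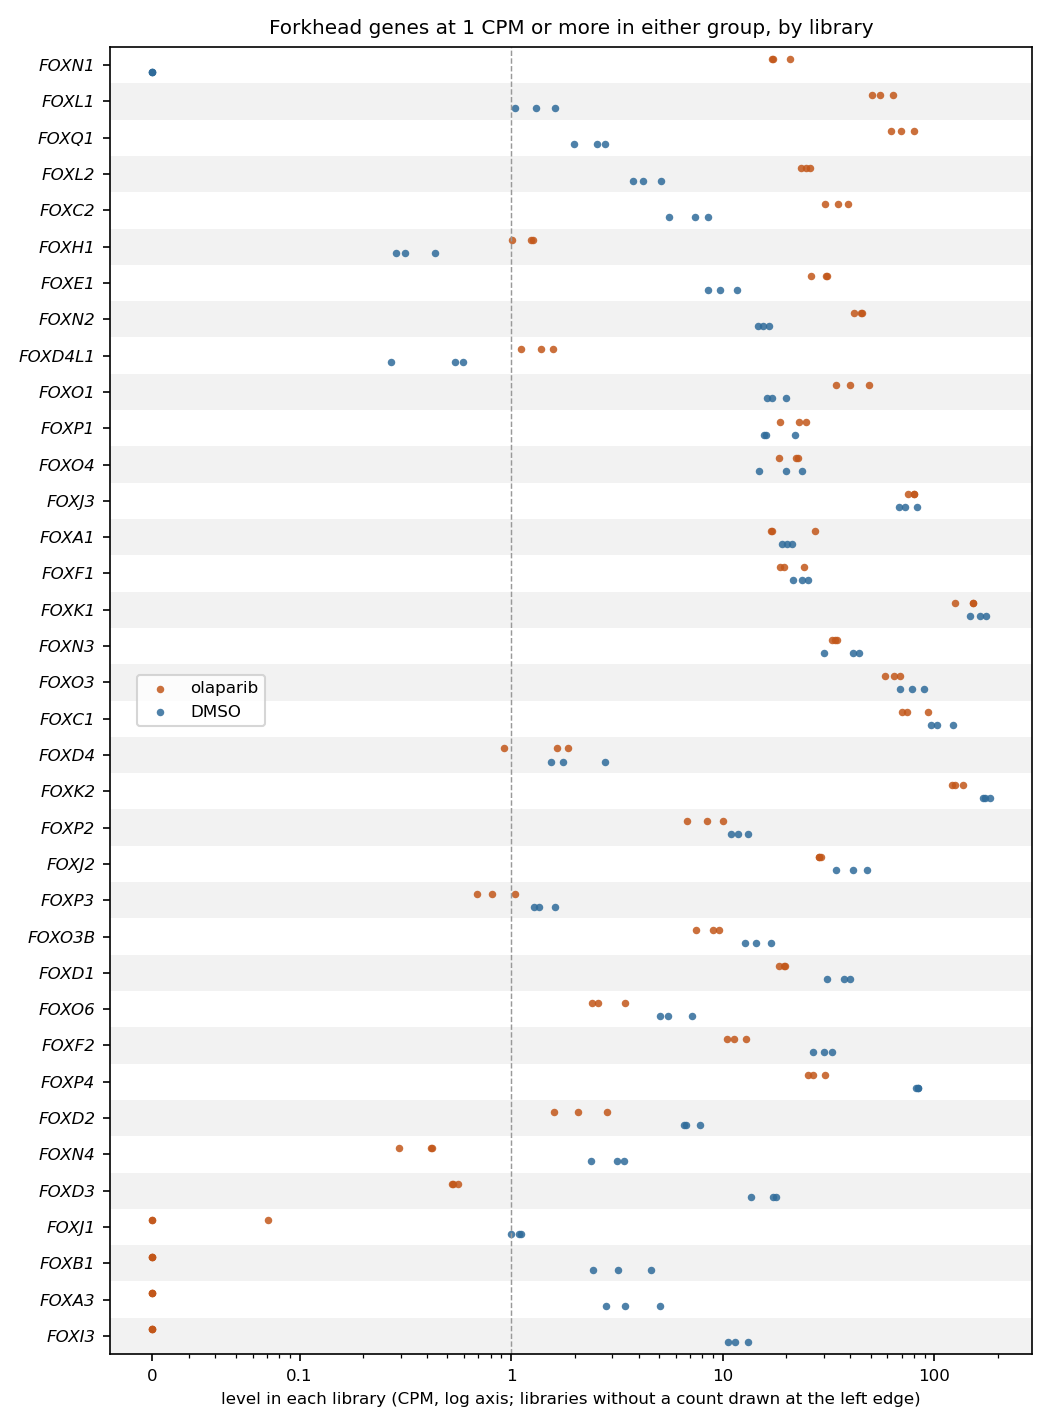
Level of 36 forkhead genes that reached a mean of 1 CPM in either group, with a row per gene and a dot per library on a log axis (orange, 3 olaparib libraries; blue, 3 DMSO libraries; libraries with no count at the left edge). Genes run from the highest to the lowest log2 fold change of olaparib over DMSO, and the dots of the 2 groups stand apart in 27 of the 36 genes.

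A gene was taken as on in 1 group only where it averaged at least 1 CPM there and under 0.1 CPM in the other. By this rule 1 member was on in olaparib alone and 5 were on in DMSO alone, 4 of which are described below. The members on in 1 group only passed the filter on low counts through that group alone. The p-values given for them below therefore add no support. Among the 15478 tested genes at 1 CPM or more in either group, 1.31% were on in olaparib only, 4.95% in DMSO only and 6.25% in either. All 37 tested members lie among those genes.

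FOXN1, which directs the differentiation of thymic epithelium and hair keratinocytes, was the member on in olaparib only (chr17:28506243-28538896, + strand; gene positions here and below are from GENCODE 29 on GRCh38, which is hg38). It held 17.3, 20.8 and 17.2 CPM in olaparib and no count in any DMSO library, so all 3 olaparib libraries had it and none of the DMSO libraries did. From 1620 counts against a floor of 3 over the group, it was at least 716-fold higher in olaparib (edgeR adjusted p = 3.73e-09). The nearest tested coding genes gave a log2 fold change of -0.88 for UNC119, which was lower, and -0.07 for SLC46A1, which was not called. Over 68 tested coding genes within 5 Mb of FOXN1 the median was 0.06.

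FOXI3, needed for ectodermal placodes, teeth and hair in mammals, was absent from the 3 olaparib libraries and held 10.6, 11.4 and 13.2 CPM in the DMSO libraries (chr2:88446787-88452656, - strand). It was at least 344-fold lower in olaparib (edgeR adjusted p = 1.67e-08). Its neighbour EIF2AK3 went the other way, with a log2 fold change of 1.13, while THNSL2 had no count in olaparib and averaged 0.776 CPM in DMSO. The median of 39 tested coding genes within 5 Mb was 0.12.

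FOXA3, an endoderm and liver factor, was absent from the 3 olaparib libraries and held 3.44, 5.06 and 2.8 CPM in the DMSO libraries (chr19:45863989-45873797, + strand), at least 105-fold lower in olaparib (edgeR adjusted p = 1.02e-06). SYMPK, 0.7 kb away, gave -0.47 and IRF2BP1 -1.91, both lower in olaparib, and the median of 241 tested coding genes within 5 Mb was -0.67. FOXB1, a factor of the hypothalamus and mammillary bodies in mice, was absent from the 3 olaparib libraries and held 4.58, 2.43 and 3.19 CPM in the DMSO libraries (chr15:60004222-60061730, + strand), at least 102-fold lower (edgeR adjusted p = 1.42e-06). It sat between genes that were higher in olaparib, BNIP2 (1.46) and ANXA2 (1.38), in a region with a median of 0.73 over 62 genes.

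FOXJ1, the regulator of motile cilia, was the faintest of the genes on in DMSO only (chr17:76136333-76141299, - strand). It had 0, 0 and 0.0708 CPM in olaparib and 1.09, 1.11 and 0.995 CPM in DMSO. The single olaparib value rests on 2 counts, in replicate 3, against 123 counts in DMSO, and the ratio was 46.4 with an exact 95% counting interval of 12.6 to 387 (edgeR adjusted p = 3.25e-05). Its neighbours EXOC7 (-1.04) and RNF157 (-2.69) were lower too, in a region with a median of -0.56 over 115 genes. Counting intervals and floors cover counting error only.

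Neither trio of neighbouring forkhead genes moved as a whole, although some adjacent members shared a direction. On chromosome 6, 3 members stand within 302 kb on the + strand. FOXQ1 (chr6:1312440-1314748, + strand), a factor often reported at high level in colorectal carcinoma, had 79.9, 69.9 and 62.7 CPM in olaparib and 2.78, 1.99 and 2.53 CPM in DMSO, a log2 fold change of 4.85 ± 0.16 (SE; edgeR adjusted p = 2.71e-10). Every olaparib library stood above every DMSO library, and the fitted fold was 28.8. FOXF2 (chr6:1389576-1395603, + strand), a factor of gut mesenchyme 77.1 kb further on, had 12.8, 10.5 and 11.3 CPM in olaparib and 32.9, 30.1 and 26.8 CPM in DMSO, a change of -1.38 ± 0.14 (SE; edgeR adjusted p = 1.82e-06). FOXC1 (chr6:1609972-1613897, + strand), needed for the front of the eye and for vessels, had 93.4, 74.3 and 70.5 CPM in olaparib and 123, 96.4 and 103 CPM in DMSO, a change of -0.44 ± 0.13 (SE; edgeR adjusted p = 0.00901). The order was thus a large rise and, beside it, a fall and a small fall. Without olaparib replicate 3, FOXC1 was no longer called (edgeR adjusted p = 0.0607). Other tested coding genes within 5 Mb, 25 of them, had a median of 0.06, with 9 higher and 9 lower. Of the genes flanking the 3, EXOC2 gave 0.40 and was higher, and GMDS gave 0.08 and was not called.

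On chromosome 16 the other trio spans 71.6 kb. FOXF1 (chr16:86510527-86515418, + strand), a factor of gut and lung mesenchyme, had 24.2, 18.8 and 19.4 CPM in olaparib and 21.5, 23.6 and 25.2 CPM in DMSO, and the change of -0.17 ± 0.14 (SE; edgeR adjusted p = 0.271) was not called. FOXC2 (chr16:86566829-86569728, + strand), a factor of lymphatic vessels, had 39.2, 35.1 and 30.5 CPM in olaparib and 5.58, 7.38 and 8.5 CPM in DMSO, a change of 2.29 ± 0.17 (SE; edgeR adjusted p = 1.44e-07). FOXL1 (chr16:86576368-86582160, + strand), which marks mesenchymal cells under the gut epithelium in mice, had 63.8, 55.2 and 50.8 CPM in olaparib and 1.04, 1.31 and 1.61 CPM in DMSO, a change of 5.41 ± 0.18 (SE; edgeR adjusted p = 2.74e-10), or 42.6-fold. FOXL1 and FOXC2 were higher in every olaparib library, while the libraries of FOXF1 overlapped. MTHFSD, which lies between FOXF1 and FOXC2, gave -0.07 ± 0.14 and was not called. Over 74 other tested coding genes within 5 Mb of FOXF1 the median was 0.14.

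FENDRR, a long noncoding RNA that starts 1.4 kb from FOXF1 on the opposite strand, had 35.4 ± 1.56 CPM in olaparib and 6.23 ± 1.56 CPM in DMSO (SD, n = 3). Its log2 fold change was 2.5 ± 0.17 (SE; edgeR adjusted p = 6.91e-08), higher in olaparib, whereas that of FOXF1 was not called. Whether the count kept strand is not known here.

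**Figure D2:**
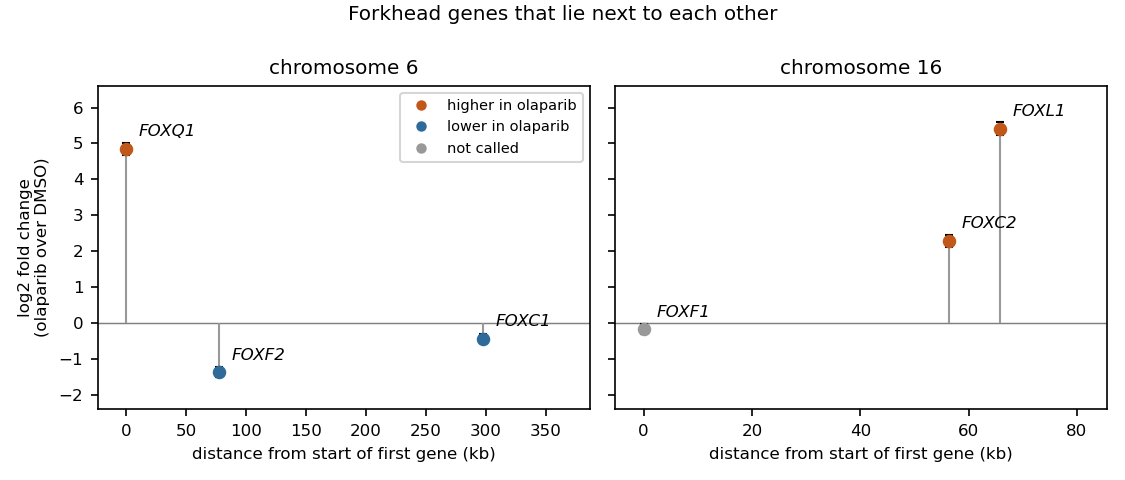
Log2 fold change of olaparib over DMSO (points, with SE as whiskers) for the neighbouring forkhead genes of chromosome 6 and chromosome 16, against the distance in kb from the start of the first gene of each trio. FOXQ1, FOXC2 and FOXL1 were higher in olaparib (orange), FOXF2 and FOXC1 lower (blue), and FOXF1 was not called (grey).

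Other members were higher in olaparib as well. FOXL2, a factor of ovarian granulosa cells and eyelids, had 23.5, 25.7 and 24.8 CPM in olaparib and 3.75, 5.12 and 4.2 CPM in DMSO, a change of 2.51 ± 0.16 (SE; edgeR adjusted p = 3.87e-08). FOXL2NB, which starts 0.1 kb from FOXL2 on the opposite strand, went with it, at 28 ± 0.908 CPM in olaparib and 3.35 ± 0.799 CPM in DMSO (SD, n = 3), a change of 3.06 ± 0.18 (SE; edgeR adjusted p = 1.92e-08). FOXE1, a thyroid factor, had 26.3, 31.2 and 30.9 CPM in olaparib and 9.76, 8.53 and 11.7 CPM in DMSO, a change of 1.56 ± 0.15 (SE; edgeR adjusted p = 1.27e-06). In each of these genes the lowest olaparib library was above the highest DMSO library.

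FOXH1, the partner of SMAD proteins in Nodal signalling, was faint, at 1.01, 1.27 and 1.24 CPM in olaparib and 0.285, 0.438 and 0.316 CPM in DMSO, and its change was 1.77 ± 0.4 (SE; edgeR adjusted p = 0.00147). Its exons share 791 bases with KIFC2, so part of its reads may belong to that gene. A filter of 1 CPM in 3 libraries removed FOXH1 from the test. FOXD4L1 was also higher and faint, at 1.57, 1.11 and 1.38 CPM in olaparib and 0.594, 0.27 and 0.543 CPM in DMSO, a change of 1.49 ± 0.41 (SE; edgeR adjusted p = 0.00508), whereas FOXD4, its near-identical copy, had 1.64, 1.86 and 0.92 CPM in olaparib and 2.78, 1.75 and 1.54 CPM in DMSO and was not called at -0.46 ± 0.36 (SE; edgeR adjusted p = 0.262). Reads of such copies can be split between rows in counting, so both values are uncertain. The DMSO libraries alone would not have passed FOXH1 or FOXD4L1 through the filter on low counts, so their p-values add no support.

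The other FOXD genes were lower in olaparib. FOXD3, a factor of the neural crest and of pluripotent cells, had 0.558, 0.523 and 0.531 CPM in olaparib and 17.2, 17.9 and 13.7 CPM in DMSO, a change of -4.91 ± 0.23 (SE; edgeR adjusted p = 2.73e-09). FOXD2 had 2.06, 1.6 and 2.83 CPM in olaparib and 6.72, 6.54 and 7.8 CPM in DMSO, a change of -1.7 ± 0.25 (SE; edgeR adjusted p = 4.73e-05). FOXD1, a factor of the renal stroma, had 19.5, 19.6 and 18.5 CPM in olaparib and 39.9, 37.4 and 31.2 CPM in DMSO, a change of -0.91 ± 0.12 (SE; edgeR adjusted p = 2.57e-05). All 3 genes were lower in every olaparib library.

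Noncoding or small neighbours were set beside the members. Of 17 such genes within 100 kb of a member, 9 were tested, and 2 were higher, 6 lower and 1 not called. Over all genes tested, 35.4% were higher and 40.3% lower. How often other adjacent genes share a direction was not counted. In 6 pairs both the member and its neighbour were called, and all 6 shared a direction. Beside the pair of FOXL2 they included FOXD3-AS1 (-2.45 ± 0.23), FOXD2-AS1 (-1.89 ± 0.24), FOXP4-AS1 (-4.28 ± 0.66) and FOXCUT near FOXC1 (-1.62 ± 0.45), all log2 fold changes with SE. Outside these pairs, FENDRR was higher and FOXN3-AS1 was lower at -1.45, although FOXF1 and FOXN3 were not called. FOXF2-DT was not called at 0.23 although FOXF2 was lower. Exons of FOXD3 and FOXD3-AS1 share 179 bases, and reads of opposite strands cannot be separated without the strand setting.

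FOXN4, a factor of retinal and spinal interneuron progenitors, had 0.419, 0.294 and 0.425 CPM in olaparib and 3.42, 3.17 and 2.4 CPM in DMSO, a change of -2.97 ± 0.34 (SE; edgeR adjusted p = 6.72e-06). Its olaparib libraries alone would not have passed FOXN4 through the filter on low counts, so this p-value adds no support. FOXN2 went the other way, at 41.7, 45.8 and 45 CPM in olaparib and 16.6, 14.7 and 15.4 CPM in DMSO, a change of 1.5 ± 0.11 (SE; edgeR adjusted p = 1.35e-07). FOXN3, a checkpoint repressor found in many tissues, had 32.9, 34 and 34.9 CPM in olaparib and 43.9, 30.1 and 41.2 CPM in DMSO, and its change of -0.18 ± 0.14 (SE; edgeR adjusted p = 0.247) was not called. With FOXN1 the FOXN genes thus gave 2 higher, 1 lower and 1 not called. FOXN3 was called lower once DMSO replicate 2 was left out (-0.34, edgeR adjusted p = 0.00886).

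The FOXO genes, outputs of the insulin and AKT pathway, went separate ways. FOXO1 had 49.4, 34.3 and 39.8 CPM in olaparib and 19.9, 16.2 and 17 CPM in DMSO, a change of 1.21 ± 0.15 (SE; edgeR adjusted p = 1.08e-05), higher in every olaparib library. FOXO3 had 58.7, 64.7 and 68.7 CPM in olaparib and 78.6, 68.6 and 89.8 CPM in DMSO, a change of -0.3 ± 0.12 (SE; edgeR adjusted p = 0.0326). The highest olaparib library was level with the lowest DMSO library, and the call was lost without any of olaparib replicates 1, 2 and 3 or DMSO replicate 3 (edgeR adjusted p = 0.12, 0.0819, 0.0535 and 0.115). FOXO3B, a pseudogene copy of FOXO3 with which it may share reads, had 7.5, 9.02 and 9.62 CPM in olaparib and 14.4, 12.7 and 16.9 CPM in DMSO, a change of -0.75 ± 0.17 (SE; edgeR adjusted p = 0.00146).

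FOXO6, the FOXO factor best known from brain, had 3.45, 2.58 and 2.41 CPM in olaparib and 5.03, 7.18 and 5.49 CPM in DMSO, a change of -1.06 ± 0.24 (SE; edgeR adjusted p = 0.00151). FOXO4 had 22.6, 22.2 and 18.4 CPM in olaparib and 23.8, 14.8 and 19.9 CPM in DMSO, and its change of 0.11 ± 0.17 (SE; edgeR adjusted p = 0.579) was not called. The sign of FOXO4 turned to -0.07 without DMSO replicate 2. Of the FOXO coding genes, then, FOXO1 was higher, FOXO3 and FOXO6 were lower and FOXO4 was not called.

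FOXK1 and FOXK2, repressors of autophagy genes, were among the most abundant members. FOXK1 had 126, 153 and 153 CPM in olaparib and 165, 148 and 175 CPM in DMSO, and its change of -0.18 ± 0.11 (SE; edgeR adjusted p = 0.166) was not called, although it was called at -0.25 without DMSO replicate 2 (edgeR adjusted p = 0.0464). FOXK2 had 122, 136 and 125 CPM in olaparib and 170.4, 173 and 184 CPM in DMSO, a change of -0.46 ± 0.1 (SE; edgeR adjusted p = 0.00083). The groups stood apart for FOXK2 and overlapped for FOXK1.

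FOXJ2 and FOXJ3, relatives of FOXJ1 that are found in most tissues, were present in both groups. FOXJ2 had 28.4, 29.1 and 28.7 CPM in olaparib and 41.2, 34.4 and 48.2 CPM in DMSO, a change of -0.52 ± 0.13 (SE; edgeR adjusted p = 0.00263). FOXJ3 had 75, 80.6 and 80.0 CPM in olaparib and 72.9, 67.7 and 83.2 CPM in DMSO, and its change of 0.07 ± 0.1 (SE; edgeR adjusted p = 0.538) was not called. FOXA1, the pioneer factor of endoderm and breast, had 27.4, 16.8 and 17.1 CPM in olaparib and 21.3, 19.1 and 20.2 CPM in DMSO; its change of 0.01 ± 0.18 (SE; edgeR adjusted p = 0.947) was not called, and its sign turned under 5 other settings. FOXA1 was thus present in all 6 libraries, whereas FOXA3 had no count in olaparib.

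FOXP4 had the clearest fall of the FOXP genes, at 30.6, 26.6 and 25.3 CPM in olaparib and 81.8, 83.7 and 83.7 CPM in DMSO, a change of -1.6 ± 0.11 (SE; edgeR adjusted p = 5.33e-08). FOXP2, known for its part in speech, had 10.1, 8.4 and 6.76 CPM in olaparib and 11.8, 11 and 13.2 CPM in DMSO, a change of -0.51 ± 0.18 (SE; edgeR adjusted p = 0.0215); its call was lost without olaparib replicate 2 or 3 or DMSO replicate 3 (edgeR adjusted p = 0.0582, 0.127 and 0.0765). FOXP1, a factor of B cells and many other tissues, had 24.6, 22.9 and 18.7 CPM in olaparib and 22, 15.7 and 16 CPM in DMSO, and 0.3 ± 0.16 (SE; edgeR adjusted p = 0.111) was not called. It was called higher without olaparib replicate 3 (0.43, edgeR adjusted p = 0.0461) or DMSO replicate 1 (0.47, edgeR adjusted p = 0.0125). FOXP3, the regulatory T cell factor, was near 1 CPM in both groups, at 1.05, 0.686 and 0.814 CPM in olaparib and 1.61, 1.35 and 1.29 CPM in DMSO. The change of -0.74 ± 0.34 (SE; edgeR adjusted p = 0.0647) was not called although the groups did not overlap; it was called with library size alone as the scaling (-0.81, edgeR adjusted p = 0.0453) and with halved counts (-0.76, edgeR adjusted p = 0.0466).

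The 10 members that did not pass the filter held few counts. FOXI2 and FOXL3 had none in any library. FOXA2, FOXB2, FOXI1, FOXO1B, FOXR1 and FOXR2 had none in olaparib and 2, 18, 6, 17, 16 and 4 counts over the 3 DMSO libraries. FOXE3 had 6 counts in olaparib and 21 in DMSO, and FOXS1 2 in olaparib and 3 in DMSO. Without a filter FOXO1B, FOXB2 and FOXR1 were called as well, which gave 31 members called.

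Levels of different genes can be set side by side only per length, as CPM per kb of annotated exon. Summed over all 47 members, the level per kb was 220, 208 and 199 in olaparib and 207, 188 and 201 in DMSO, or 209 ± 10.6 in olaparib and 199 ± 9.69 in DMSO (SD, n = 3). The ratio was 1.05 and the ranges overlapped (exact permutation test, two-sided p = 0.4, where the smallest possible is 0.1). The sums were close while their makeup was not.

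In olaparib FOXQ1 stood first, with 30.7 ± 3.75 CPM per kb (SD, n = 3) and 14.7% of the summed level, apart from FOXC1 at 20.2 ± 3.12 in every library. In DMSO libraries FOXQ1 was 26th, at 1.05 ± 0.175 CPM per kb or 0.530% of the sum. FOXL1 followed with 15.1 ± 1.77, FOXK2 with 12.8 ± 0.751 and FOXC2 with 12.0 ± 1.49 in olaparib, and the range of FOXK2 overlapped with those of FOXL1 and FOXC2, whereas FOXL1 stood above FOXC2 in every library. In DMSO FOXC1 came first, with 27.4 ± 3.52 CPM per kb and 13.8% of the sum. FOXK2 at 17.6 ± 0.698 was next and stood apart from it, and FOXD1 at 13.8 ± 1.70 and FOXP4 at 13.5 ± 0.181 overlapped. The 10 highest members made up 66.2% of the sum in olaparib and 67.5% in DMSO. Lengths are unions of all annotated exons, such as 36714 bases for FOXP1 and 16152 for FOXP2, and so understate the level per kb of genes with many transcripts.

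**Figure D3:**
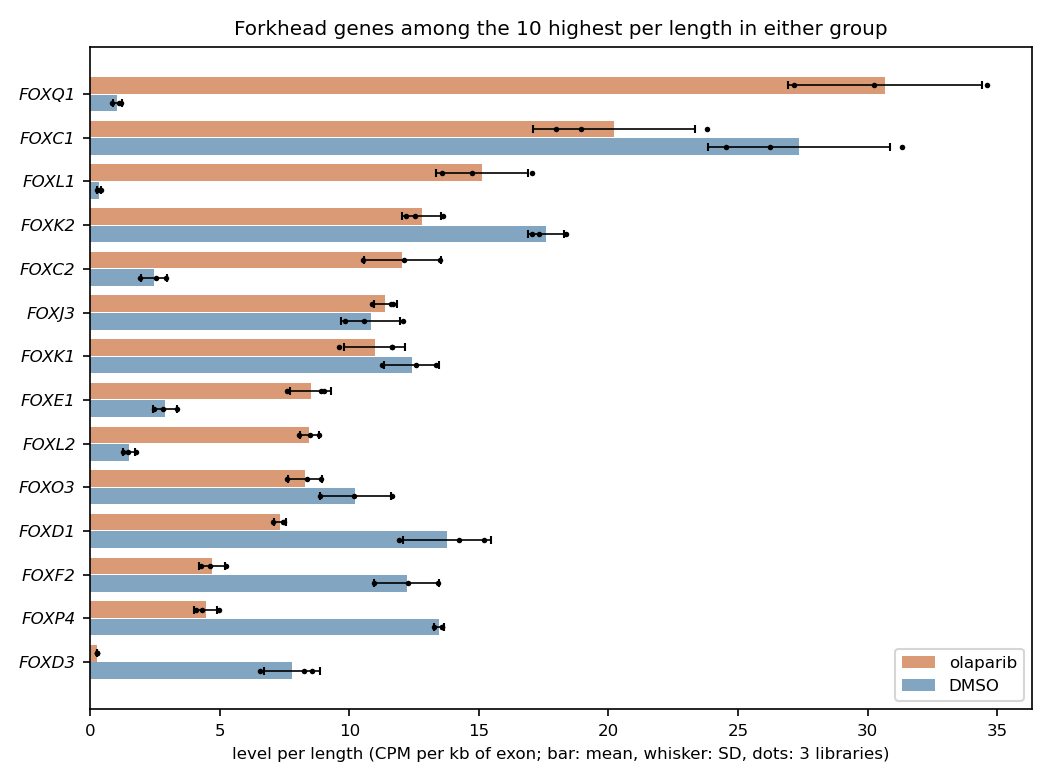
Level per length (CPM per kb of exon) of 14 forkhead genes that were among the 10 highest in either group, with bars for the mean, whiskers for the SD and dots for the 3 libraries of each group (orange olaparib, blue DMSO). FOXQ1 leads in olaparib at 30.7 and FOXC1 in DMSO at 27.4.

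Forkhead genes differ in structure, and many have a coding sequence in 1 exon. By the largest number of exons in an annotated coding transcript, 12 tested members had 1 exon, 12 had 2 to 4 and 12 had 5 or more. Among members with 1 exon, 6 were higher, 5 lower and 1 not called, with a median absolute log2 fold change of 1.99. Members with 2 to 4 exons gave 2 higher, 7 lower and 3 not called, with a median of 1.29. Members with 5 or more exons gave 2 higher, 5 lower and 5 not called, with a median of 0.52. Changes called and of at least 2-fold numbered 9, 8 and 4 in that order. Over all genes tested, 75.7% were called and 47.0% were called at 2-fold or more. The classes were set after the values of the members were known and were not tested against each other.

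**Figure D4:**
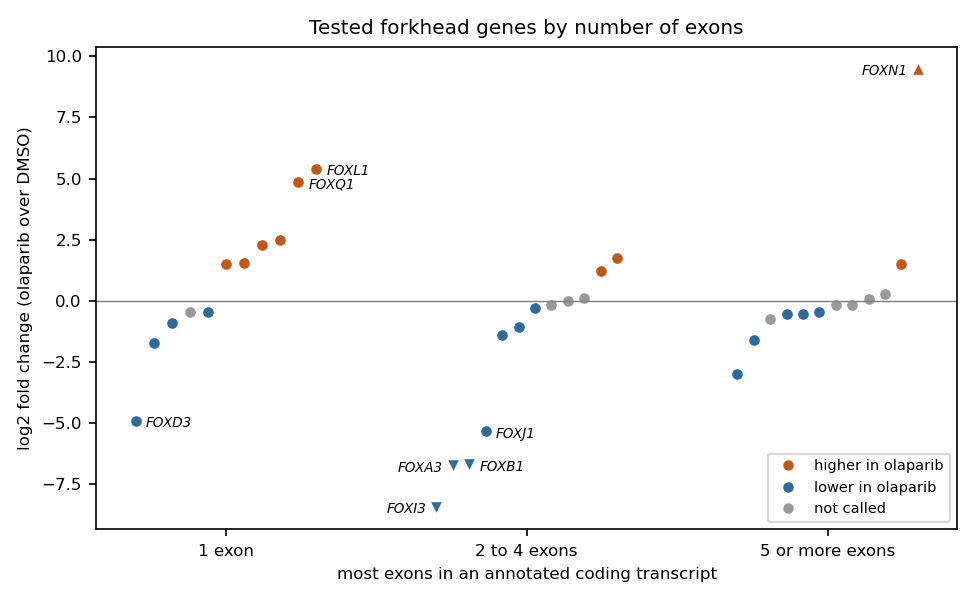
Log2 fold change of olaparib over DMSO for 35 tested forkhead genes with a coding transcript, in 3 classes of exon number (orange, higher in olaparib; blue, lower; grey, not called; triangles, lower bounds of genes with no count in 1 group). Over all tested members the median absolute value was 1.99 with 1 exon and 0.52 with 5 or more, and FOXN1 is the farthest point of the last class.

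RefSeq promoters were found for 36 of the 47 members, and their CpG content ran from 1 in FOXP2 and FOXR2 to 55 in FOXK1 and FOXK2. The median number of CpG was 27.5 over these and 14.0 over all 27305 promoters, and the median GC content was 68.0% and 58.3%. By call, the median was 30 CpG for members higher in olaparib, 30.5 for members lower, 29.5 for tested members not called and 22.0 for members not tested. Only 6 of the 10 members called higher had a promoter in the table. Some RefSeq starts differ from the GENCODE gene. The FOXP2 promoter (chr7:114414565-114414864) lies inside the gene, which starts at 114086327. That of FOXO3B (chr17:18682265-18682564, - strand) lies apart from the gene (chr17:18670946-18672873). The forkhead core TGTTTAC, searched on both strands, was in 1 of 36 promoters, that of FOXO4 (2.8%), and in 3.4% of all promoters. The TATA box TATAAA, also on both strands, was in those of FOXA3, FOXP3 and FOXR2 (8.3%) and in 12.0% of all. No member's promoter held both motifs. A match is a run of letters, not a bound site.

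The genes around the FOXO factors were described from lists of known inputs, cofactors and targets. Counts for these and the lists that follow are to be read beside the shares over all genes tested. Of those genes, 35.4% were higher and 40.3% lower, with a median log2 fold change of -0.09. Of 28 inputs and cofactors, all tested, 10 were higher, 8 lower and 10 not called, with a median log2 fold change of 0.08. RICTOR, the mTORC2 subunit that lets AKT be fully activated, had 292 ± 15.3 CPM in olaparib and 36.4 ± 6.99 CPM in DMSO, a change of 3.0 ± 0.14 (SE; edgeR adjusted p = 3.44e-09). SFN, a 14-3-3 protein, gave 2.28 ± 0.15 (SE; edgeR adjusted p = 5.1e-08) and SIRT1, a deacetylase of FOXO proteins, 0.81 ± 0.09 (SE; edgeR adjusted p = 7.19e-06). PIK3R1, the regulatory subunit of PI3 kinase, was lower and averaged 1.32 ± 0.38 CPM in olaparib libraries and 20.6 ± 4.6 CPM in DMSO libraries, a change of -3.96 ± 0.25 (SE; edgeR adjusted p = 3.94e-08). YWHAH, another 14-3-3 protein, gave -1.58 ± 0.1 (SE; edgeR adjusted p = 3.34e-08) and PRMT1, a methyltransferase that acts on FOXO1, -1.7 ± 0.13 (SE; edgeR adjusted p = 1.51e-07).

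Of 26 tested FOXO target genes, 15 were higher, 9 lower and 2 not called, and the median was 0.47. Over all genes tested, 75.7% were called. IRS2, an adaptor of the insulin receptor, had 204 ± 22.1 CPM in olaparib and 40.6 ± 4.67 CPM in DMSO, a change of 2.32 ± 0.12 (SE; edgeR adjusted p = 7.74e-09). CITED2, a regulator of CBP and p300, gave 2.63 ± 0.11 (SE; edgeR adjusted p = 1.4e-09). IGFBP1, a classic FOXO1 target of liver, had 22.5 ± 7.4 CPM in olaparib and no count in DMSO, at least 866-fold higher. The sestrins SESN3 and SESN1, which restrain mTORC1, were lower, at -5.64 ± 0.28 (SE; edgeR adjusted p = 5.16e-09) and -1.35 ± 0.14 (SE; edgeR adjusted p = 2.53e-06), as was KLF2 at -2.41 ± 0.29 (SE; edgeR adjusted p = 9.89e-06). All values are from the same edgeR fit, with 3 libraries per group.

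Endoderm factors and FOXA targets split by gene, with 9 higher, 6 lower and 0 not called of 15 tested, and a median of 1.54. KLF5, a factor of gut epithelium, had 222 ± 23 CPM in olaparib and 43.5 ± 4.27 CPM in DMSO, a change of 2.35 ± 0.12 (SE; edgeR adjusted p = 5.29e-09). HNF4A, a factor of gut and liver epithelium, gave 6.47 ± 0.42 (SE; edgeR adjusted p = 4.34e-08). CDX2, the intestinal homeobox factor that is also in the colon epithelium list, lacked counts in olaparib and averaged 24.5 ± 2 CPM with DMSO, at least 713-fold lower, and PDX1, a pancreatic factor, was at least 221-fold lower. GATA6 was lower at -1.69 ± 0.15 (SE; edgeR adjusted p = 6.78e-07). These values are from libraries in which FOXA1 was present in both groups and FOXA3 in DMSO only.

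Genes of the motile cilia programme that FOXJ1 directs gave 6 higher, 8 lower and 5 not called of 19 tested, with a median of -0.57. DNAH5, a dynein arm, had 26.6 ± 4.9 CPM in olaparib and 0.388 ± 0.1 CPM in DMSO, a change of 6.06 ± 0.24 (SE; edgeR adjusted p = 1.06e-09), and SPEF2 gave 2.37 ± 0.18 (SE; edgeR adjusted p = 1.81e-07). CCNO, a cyclin needed for multiciliated cells, gave 0.96 ± 0.15 (SE; edgeR adjusted p = 7.62e-05). TP73, a regulator of multiciliated cells upstream of FOXJ1, was lower at -2.93 ± 0.19 (SE; edgeR adjusted p = 5.28e-08), as was TUBB4B, a tubulin of many cells, at -1.6 ± 0.12 (SE; edgeR adjusted p = 1.8e-07). The genes named here do not include the largest falls in the list. Only 10 of the 25 listed genes reached 1 CPM in olaparib and 13 in DMSO.

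Of 12 FOXN1 targets in thymus and skin, 6 were tested, and 1 was higher, 2 lower and 3 not called. The thymic genes PRSS16, DLL4 and CD83 were present in both groups and not called, with 15.6 ± 2.27, 3.47 ± 1.69 and 18.8 ± 4.99 CPM in olaparib and 11.8 ± 2.16, 3.09 ± 0.294 and 19.3 ± 1.14 CPM in DMSO (SD, n = 3). Of the 6 that were not tested, PSMB11, CCL25 and KRT35 had no count in olaparib and 5, 9 and 25 counts in DMSO, KRT1 and KRT85 had no count in either group, and CCL19 had 1 count in olaparib and 4 in DMSO. KRT10 was higher at 0.39 ± 0.12 (SE; edgeR adjusted p = 0.0108), a call lost without DMSO replicate 3 (edgeR adjusted p = 0.0539). FGFR2 was lower at -7.64 ± 0.44 (SE; edgeR adjusted p = 1.59e-08), and CXCL12 had no count in olaparib and was at least 31.4-fold lower. Of 9 FOXI1 targets, 4 were tested, and 0 were higher, 2 lower and 2 not called, with a median of -3.52, or -1.9 with zero-count genes at their bound. CA2, a carbonic anhydrase, had 2 counts over the olaparib libraries and 98.7 ± 52 CPM in DMSO.

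**Figure D5:**
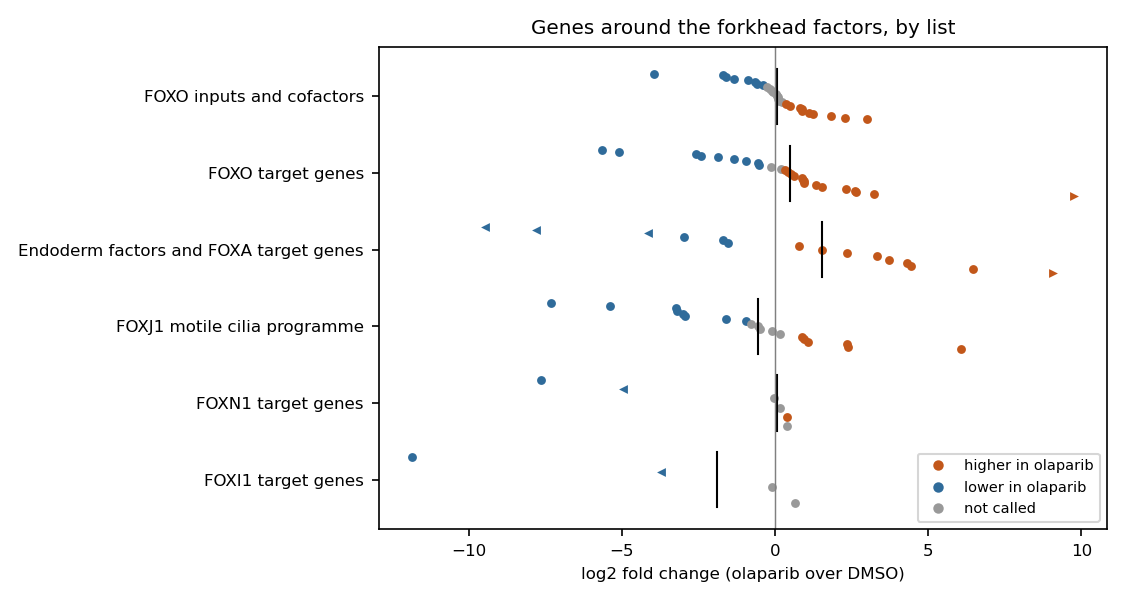
Log2 fold change of olaparib over DMSO (x axis) for each tested gene of 6 lists around the forkhead factors (orange, higher in olaparib; blue, lower; grey, not called; triangles, lower bounds of genes with no count in 1 group; black bar, the list's median with such genes at their bound). Both directions are present in the lists of FOXO inputs, FOXO targets, endoderm genes and cilia genes.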

How the data were processed

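The deposited data are raw counts of reads for 39396 gene symbols in 6 libraries. The tools fastp and STAR and the build hg38 appear in the submitters' processing notes. How reads were counted, with which annotation and whether by strand, is not stated in the sources used here. More genes held 2 counts than 1 in every library, so counting intervals may be too narrow. Groups and replicate numbers came from the sample titles. Replicates differed by more than counting noise, so none was treated as a library deposited again. This does not show that they were separate cultures.

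The test was the quasi-likelihood F-test of edgeR 4.0.16 (R 4.3.3), with TMM factors, genes kept by filterByExpr, a robust fit, group as the 1 term and Benjamini-Hochberg adjustment over 17078 genes. Calls were made at 0.05. The procedure was also run on simulated data in which few genes changed. Most genes differed in these data, so that run does not give the error rate here. The SE of a log2 fold change is its size divided by the root of F. Where a group had no count, the fold is a lower bound from 3 counts in that group as a whole. Where a group held 1 to 3 counts, a ratio with its exact interval was used. Gene positions, types and exon lengths came from GENCODE release 29, matched by symbol for all 47 members. Promoters came from RefSeq.

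The members, gene lists and alternatives were chosen with earlier results of these data known. Every member with a mean of 1 CPM or more in either group is given by library. From each list up to 3 genes called higher and up to 3 called lower with the smallest adjusted p and 1 CPM or more in either group were eligible for naming, not all of which are given, and some genes and 1 member are not reported here. Alternatives were DESeq2 1.42.0, limma-voom (limma 3.58.1), RLE size factors, library size alone, 2 other filters, the replicate number as a block, halved counts, stricter thresholds and the loss of each library in turn.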

Additional observations from a re-analysis of the deposited data

How the results depend on the processing

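The 37 tested members were refitted with DESeq2, with limma-voom, with RLE size factors or no scaling beyond library size, with 2 other filters, the replicate block, halved counts and the loss of each library. Of 517 refit values, 497 kept the direction and the side of the threshold, 8 lost the call, 6 gained it and 6 changed sign, and 28 of 37 members kept direction and call in every refit that tested them. These 28 are not the same as the 28 members called, since FOXC1, FOXO3 and FOXP2 lost the call in some refits. FOXD4, FOXF1 and FOXJ3 are among the 28 because they kept their direction and were never called. FOXH1 kept its call wherever it was tested. It was not tested with a filter of 1 CPM in 3 libraries, which left 27 members called, 9 of them higher. FOXA1 changed sign with limma-voom (-0.03), with library size alone (-0.06), with the replicate block (-0.02), without olaparib replicate 1 (-0.26) and without DMSO replicate 2 (-0.04), and FOXO4 did so without DMSO replicate 2 (-0.07). With 1 library left out, FOXA1 ranged from -0.26 to 0.15 and FOXO4 from -0.07 to 0.26; neither was called in any of these, and the cause was not tested. Members called numbered 26 to 31 over all settings. The members on in DMSO only numbered 2, FOXI3 among them, where on meant 5 CPM or more, since fewer genes reach that level. With a library left out, 10 to 11 members were called higher and 15 to 20 lower, 12337 to 13166 genes were called in all, and the ratio of summed levels was 1.02 to 1.10. The same-numbered libraries of the groups did not deviate together (correlations -0.14, -0.09 and -0.002). This gave no sign of pairing, but with so few libraries it cannot exclude a shared culture or day. With the replicate block 28 members were called, 10 higher and 18 lower, the same 28 as without it, and 12426 genes in all. The 10 members that did not pass the filter held at most 6 counts in olaparib and 21 in DMSO. Whether low depth or absent expression lay behind this was not tested.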
